A study of Homo sapiens with 6 samples.

Results

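The HOXA cluster on chromosome 7 is one of the 4 human HOX clusters, and 6 of its transcripts were among the 1305 genes of the authors' deposited table. They were the protein-coding genes HOXA2, HOXA5, HOXA9 and HOXA13 and the antisense transcripts HOXA-AS2 and HOXA-AS3, taken by their symbols. The samples were cultures of NCI-H292, an established line from a human lung cancer, treated for 48 hours with 50 nM mitoxantrone (3 libraries) or with the solvent DMSO at 1/1000 (3 libraries). Mitoxantrone, a chemotherapy drug, poisons topoisomerase II and so breaks DNA, and per its title the series concerns senescent lung cancer cells and therapy directed at LUNX. The deposited table lists only genes that the authors had selected as changed, each with a log2 fold change of 1.0 or more in size, so that the 6 transcripts were bound to differ. Nothing in the labels ties each library to a culture of its own, so p-values reflect how far these 6 samples scatter, and that scatter may be technical.

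HOX genes encode homeodomain transcription factors that give cells their position along the body axis. Their order on the chromosome follows the order in which they are used from head to tail, so that HOXA2 lies at the anterior end and HOXA13 at the posterior end. Polycomb complexes keep unused parts of a cluster silent, trithorax complexes keep used parts open, and retinoic acid switches on the anterior genes. In the mouse, Hoxa5 is required for normal development of the lung and airway.

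The positions given here are those of the deposited table, whose genome build is not named. The members spanned 100 kb from HOXA2 (chromosome 7, 27139721 to 27142430) to HOXA13 (27233122 to 27239725). The 4 protein-coding genes were on the minus strand, with HOXA5 at 27180671 to 27183287 and HOXA9 at 27202054 to 27210117. The antisense transcripts were on the plus strand, with HOXA-AS2 at 27147396 to 27173921 and HOXA-AS3 at 27169596 to 27195542. HOXA-AS2 and HOXA-AS3 overlapped by 4326 bases, and all 2617 bases of HOXA5 lay within the span of HOXA-AS3. In GENCODE release 29, which is on GRCh38 and puts HOXA5 at 27141052, the exons of HOXA-AS3 and HOXA5 shared no base. Of the exon bases of HOXA-AS3, 39.3% were also exons of other genes on the opposite strand, HOXA7 with 1507 bases first among them. That share was 11.9% for HOXA-AS2 (HOXA3 and HOXA4), 13.9% for HOXA9, 1.69% for HOXA13 and 0% for HOXA2 and HOXA5. HOXA9 shared 15.9% of its exon bases with genes on its own strand (AC004080.3 and MIR196B). In all, 27% were shared with genes on either strand, which strand information would not resolve in full. The gene models of that release are not all those counted: HOXA9 spans 12746 bases there and 8064 in the deposited table. These shares are therefore a guide to the deposited counts only. The labels do not say whether the libraries kept the strand, so reads from these shared stretches cannot be assigned to one strand with certainty, and the values of HOXA-AS3 are the most exposed to this.

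To show how the members differ in sequence, the bases before the start that RefSeq (GRCh38.p14) gives each gene are shown for 4 of them, as 1 run each from 5′ to 3′ on the gene's own strand. Windows were found for 5 of the 6 members (HOXA2, HOXA9, HOXA13, HOXA-AS2 and HOXA-AS3). Each window held the 250 bases before the RefSeq start, and stretches that are exons in GENCODE release 29 were left out of the runs. GENCODE gives some of these genes longer transcripts that begin farther upstream. All 250 bases of the windows of HOXA9, HOXA-AS2 and HOXA-AS3 therefore lay within the gene's own GENCODE span, and these runs are intragenic there. For HOXA-AS2 that span begins at 27107777, while its window begins at 27121669. Of the window of HOXA2 128 bases, and of that of HOXA13 15 bases, were the gene's own exon in GENCODE. The runs are chr7:27102812-27102933 (minus strand) for HOXA2, chr7:27165538-27165787 (minus) for HOXA9, chr7:27200107-27200341 (minus) for HOXA13 and chr7:27121669-27121916 (plus) for HOXA-AS2. Capitals mark matches on either strand, and a match on the other strand appears as its reverse complement. In the run of HOXA2 they mark CCAAT, a common promoter element. In that of HOXA9 they mark the same element, the letters of the TATA box (TATAAA) and TTTATG, which posterior HOX and CDX proteins can bind. The TATAAA match lies 150 bases before the RefSeq start, and whether it acts as a TATA box was not tested. In that of HOXA13 they mark the first element again and GGGCGG, which SP1 binds. In that of HOXA-AS2 they mark the homeodomain motif TAATTA together with the TTTATG motif.
HOXA2: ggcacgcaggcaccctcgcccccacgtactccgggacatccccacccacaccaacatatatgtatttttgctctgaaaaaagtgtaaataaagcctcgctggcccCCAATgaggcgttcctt
HOXA9: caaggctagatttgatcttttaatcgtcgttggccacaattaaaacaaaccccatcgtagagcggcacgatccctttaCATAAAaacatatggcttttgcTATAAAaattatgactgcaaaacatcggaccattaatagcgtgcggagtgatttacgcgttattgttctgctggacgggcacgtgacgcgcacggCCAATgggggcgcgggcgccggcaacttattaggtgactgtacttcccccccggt
HOXA13: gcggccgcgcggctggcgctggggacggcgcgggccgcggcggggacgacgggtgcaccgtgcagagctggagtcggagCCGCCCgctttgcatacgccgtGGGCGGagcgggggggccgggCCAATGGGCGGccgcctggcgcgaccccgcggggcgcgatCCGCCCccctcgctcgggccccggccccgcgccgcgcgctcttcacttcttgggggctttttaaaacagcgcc
HOXA-AS2: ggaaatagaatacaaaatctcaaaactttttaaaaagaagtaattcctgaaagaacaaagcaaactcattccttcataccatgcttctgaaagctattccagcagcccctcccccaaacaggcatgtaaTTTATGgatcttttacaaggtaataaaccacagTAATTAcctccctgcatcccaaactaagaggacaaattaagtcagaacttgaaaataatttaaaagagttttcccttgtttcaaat

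The windows had little base composition in common. HOXA13 had 40 CG pairs and 78% G or C in its 250 bases, more CG pairs than 97.8% of 35114 RefSeq windows of the same length. HOXA9 had 20 CG pairs, HOXA2 had 8, HOXA-AS3 had 2 and HOXA-AS2 had 0, against a median of 11 over all windows. Among 7 motifs searched, CCAAT was found in HOXA2 (4 matches, 1 of them in the run shown), HOXA9, HOXA13 and HOXA-AS3, and in 32% of all windows. GGGCGG was found 4 times in HOXA13 and in 42.6% of all windows. TTTATG was found in HOXA9 and HOXA-AS2 (9.64% of all windows), TATAAA in HOXA9 (10.7%), and TAATTA in HOXA-AS2 (4.35%). TGATTNAT, a motif that HOX proteins bind with their cofactors, was found once in HOXA2, outside the run shown, and in 2.48% of all windows. AGGTCA, a sequence bound by nuclear receptors, was searched as well (12.1% of all windows) and these letters are not in the 5 windows. No match overlapped another.

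All 6 HOXA transcripts fell with mitoxantrone, from 2.24-fold for HOXA13 to 2.79-fold for HOXA9. The test was the quasi-likelihood test of edgeR on the raw reads, with p-values adjusted by the Benjamini-Hochberg method for the 18310 genes that the authors had tested. The test called 6 of 6 members lower, where 35.3% of the table's genes were called lower and 39.2% were lower in the authors' deposited table. For 5 of the 6 the mitoxantrone and DMSO libraries did not overlap, as was so in the lower direction for 38.5% of the table's genes. The authors had selected the table on the same contrast, so these counts describe the members and are no independent evidence of their direction. Fewer cells that make a transcript and less of it per cell cannot be told apart in such bulk samples.

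HOXA2, which patterns the hindbrain and the second pharyngeal arch, had 41.8, 30.2 and 42.9 normalised reads in the mitoxantrone libraries, against 111, 101 and 106 in the DMSO libraries. Normalised reads are counts divided by the authors' size factor of the library. The groups were far apart, and the DMSO libraries differed little among themselves. The log2 fold change of HOXA2 was -1.47 (standard error 0.21, adjusted p = 1.4e-04, edgeR quasi-likelihood test).

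HOXA5 had 90.5, 94.8 and 115 normalised reads with mitoxantrone, against 221, 265 and 208 with DMSO. The groups stood well apart, and HOXA5 averaged 100 ± 13.0 normalised reads with mitoxantrone and 231 ± 29.7 with DMSO (SD, n = 3 each). Its log2 fold change was -1.21 (standard error 0.17, adjusted p = 1.0e-04, edgeR).

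HOXA9, known for its part in blood progenitors and in leukaemia, had the largest fall of the 6. It had 72.4, 86.5 and 89.1 normalised reads with mitoxantrone, against 225, 248 and 219 with DMSO. Its DMSO libraries lay within a narrow range, with a coefficient of variation of 6.64%. The log2 fold change was -1.48 (standard error 0.16, adjusted p = 9.9e-06, edgeR).

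HOXA13, which shapes the distal limb and the urogenital tract, was among the weaker transcripts. It had 29.4, 35.4 and 23.6 normalised reads with mitoxantrone, against 90.2, 49.5 and 58.3 with DMSO. DMSO replicate 1 was high and the other DMSO libraries lay nearer to the mitoxantrone ones, without overlap. The log2 fold change was -1.16 (standard error 0.28, adjusted p = 0.016, edgeR). Without DMSO replicate 1 it was -0.87 and without mitoxantrone replicate 3 it was -1.03, and the call ended in both (adjusted p = 0.14 and 0.11; 3.4e-05 to 0.16 over the alternatives).

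HOXA-AS2, a long non-coding RNA transcribed against HOXA3 and HOXA4, had the most reads of the 6. It had 200.1, 167 and 135 normalised reads with mitoxantrone, against 360.0, 432 and 419 with DMSO, and the groups did not overlap. The log2 fold change was -1.27 (standard error 0.16, adjusted p = 4.5e-05, edgeR).

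HOXA-AS3, the other antisense RNA, had 19.2, 22.9 and 31.1 normalised reads with mitoxantrone, against 63.6, 29.9 and 74.5 with DMSO. DMSO replicate 2 lay within the mitoxantrone range, so that the groups overlapped. The log2 fold change was -1.20 (standard error 0.34, adjusted p = 0.040, edgeR). The call ended when any library other than DMSO replicate 2 was left out, with log2 fold changes of -1.11 and -0.95 without DMSO replicates 1 and 3 and of -1.06, -1.16 and -1.41 without mitoxantrone replicates 1, 2 and 3. The adjusted p-values were then 0.22, 0.32, 0.12, 0.14 and 0.052 (1.8e-04 to 0.50 over the alternatives). Without DMSO replicate 2 the log2 fold change was -1.49 and the adjusted p 2.7e-04.

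**Figure D1:**
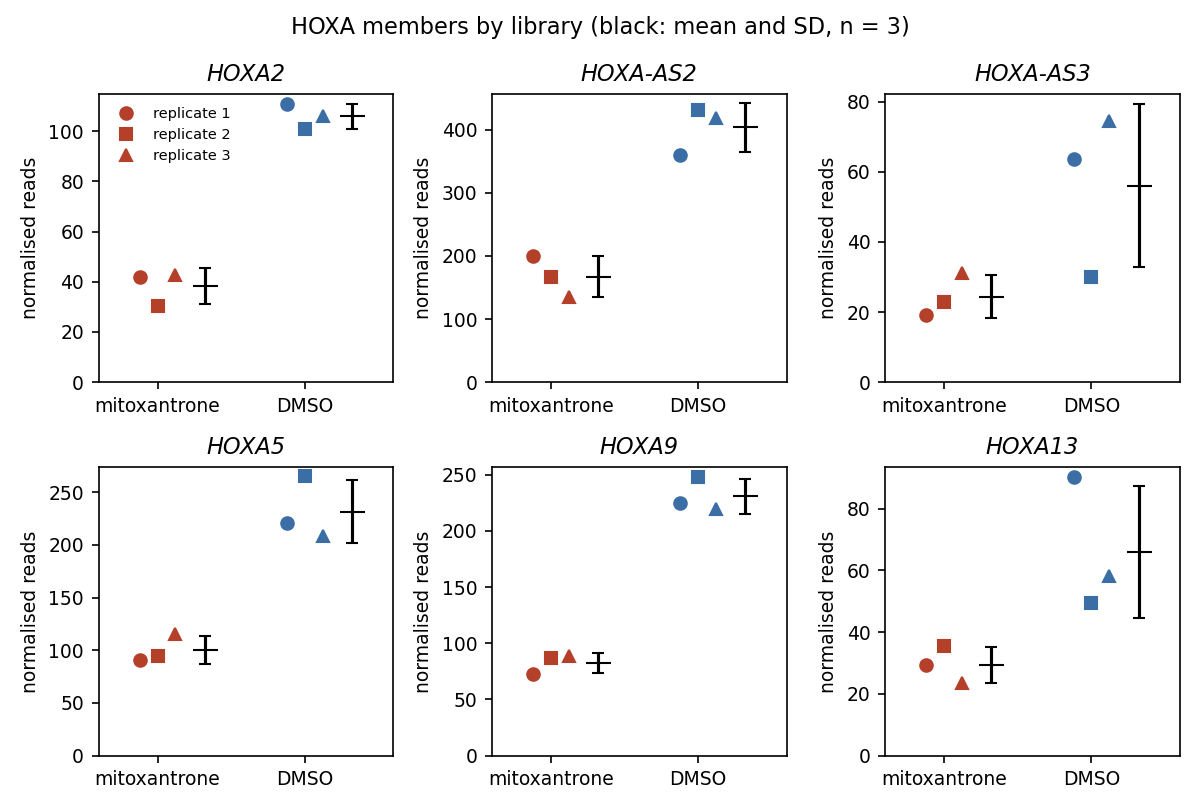
Normalised reads of the 6 HOXA transcripts in each library, with mitoxantrone at the left of each panel and DMSO at the right. Symbols are libraries by replicate number, and black bars are the mean and SD of 3 libraries; DMSO replicate 2 of HOXA-AS3 (29.9) is the single DMSO value inside the mitoxantrone range of its transcript.

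The falls of the 6 listed members were of similar size. The deposited table leaves out genes with smaller changes, so a gradient along the cluster cannot be judged from them. In gene order the log2 fold changes were -1.47 for HOXA2, -1.27 for HOXA-AS2, -1.20 for HOXA-AS3, -1.21 for HOXA5, -1.48 for HOXA9 and -1.16 for HOXA13. The 95% intervals of all 6 shared the range of -1.56 to -1.13. The median was -1.34 for the 4 protein-coding genes and -1.24 for the 2 antisense transcripts. Over all 6 it was -1.24, against -1.51 for the 512 lower genes of the table and 1.26 for all 1305 genes. Ranked by size of fall among these 512 genes, the members lay between rank 262 (HOXA9) and rank 418 (HOXA13). The authors' deposited table gave smaller log2 fold changes, from -1.41 for HOXA9 to -1.01 for HOXA-AS3 and -1.02 for HOXA13. The last 2 lay just inside its threshold of 1.0 in absolute value, and HOXA genes outside the table were not analysed here.

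**Figure D2:**
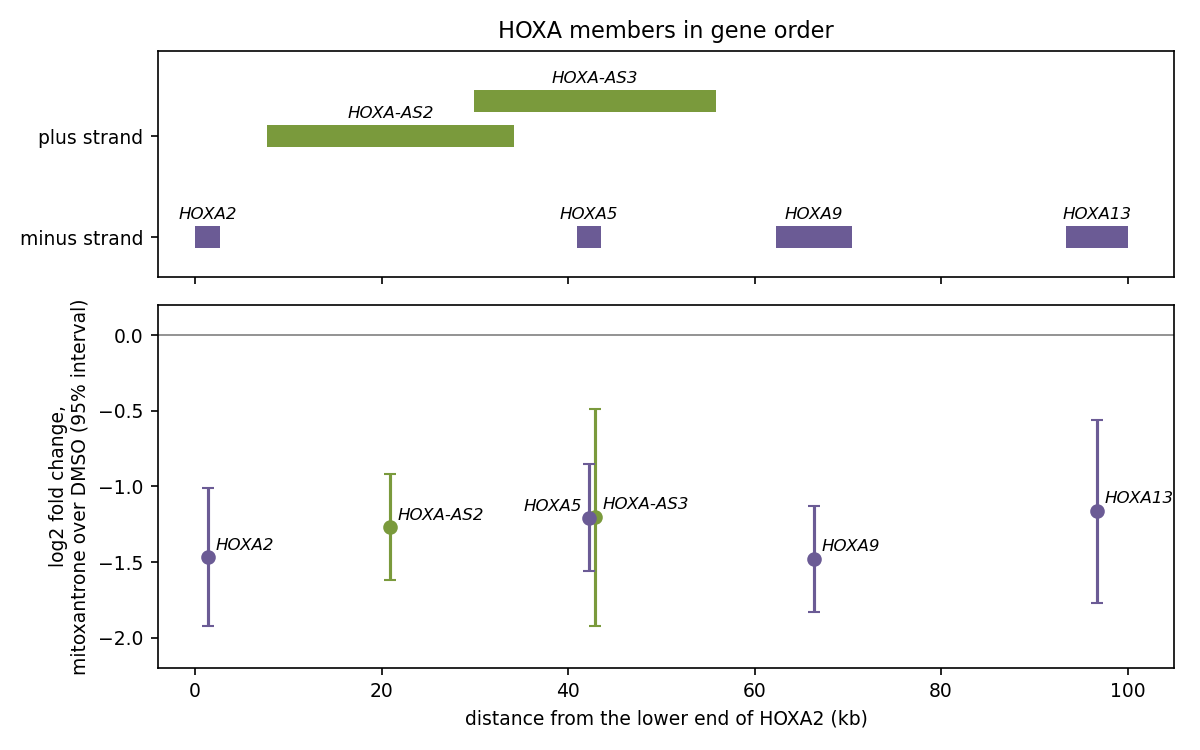
Upper panel, the 6 members on the plus (green) and minus (purple) strand, by distance in kb from the lower end of HOXA2; lower panel, the log2 fold change of each, mitoxantrone over DMSO, at the middle of its span, with 95% intervals as bars. All points lie between -1.48 and -1.16, and all intervals lie below 0.

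Levels of different genes were compared as the authors' FPKM values, which are corrected for counted length and for depth. HOXA5 was highest, at 3.60 ± 0.558 FPKM with mitoxantrone and 8.70 ± 0.784 FPKM with DMSO (SD, n = 3 each). HOXA9 had a level of 1.99 ± 0.257 FPKM with mitoxantrone and 5.82 ± 0.181 with DMSO. HOXA-AS2 followed at 1.94 ± 0.330 and 4.91 ± 0.358 FPKM in the mitoxantrone and DMSO libraries, and HOXA2 at 1.14 ± 0.214 FPKM with mitoxantrone and 3.31 ± 0.280 with DMSO. HOXA13 (0.390 ± 0.0755 FPKM with mitoxantrone and 0.917 ± 0.326 with DMSO) and HOXA-AS3 (0.253 ± 0.0709 FPKM with mitoxantrone and 0.613 ± 0.268 with DMSO) were lowest. The order was the same in both groups. With mitoxantrone HOXA9 and HOXA-AS2 overlapped, and HOXA13 and HOXA-AS3 overlapped in both groups; the other neighbours in this order did not overlap. HOXA5 made up 38.7% of the summed FPKM of the 6 with mitoxantrone and 35.8% with DMSO.

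The 6 members together took 27.2, 26.8 and 27.4 reads per 1000000 reads of the library in the mitoxantrone libraries, against 70.8, 69.2 and 71.1 in the DMSO libraries. These sums rest on 401 to 419 reads per mitoxantrone library and 1092 to 1267 per DMSO library. The sums lay close together within each group, while single members varied more. With 3 libraries per group and so few reads, this closeness does not show that the sum is stable.

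Shares of antisense reads were set beside those of a protein-coding neighbour, without a test. They are shares of raw reads, not corrected for length, and so do not compare levels between genes. The counted lengths were 5962 bases for HOXA-AS3 and 1707 for HOXA5, and 5281 for HOXA-AS2 and 2066 for HOXA2. HOXA-AS3 made up 17.5%, 19.5% and 21.3% of the reads of HOXA-AS3 and HOXA5 with mitoxantrone, against 22.4%, 10.1% and 26.4% with DMSO. The mean share was 19.4% ± 1.9 with mitoxantrone and 19.6% ± 8.49 with DMSO (SD, n = 3 each). In DMSO replicate 2 the share had an exact 95% binomial interval of 6.90% to 14.2%, below that of DMSO replicate 1 (18.0% to 27.2%) and DMSO replicate 3 (21.7% to 31.5%). Without DMSO replicate 2 the mean DMSO share was 24.4%, and both remaining DMSO shares lay above the mitoxantrone range. The intervals of the mitoxantrone libraries (10.6% to 26.6%, 12.6% to 28.0% and 14.8% to 29.2%) nevertheless overlapped those of both remaining DMSO libraries. HOXA-AS2 made up 81.1% ± 4.61 of the reads of HOXA-AS2 and HOXA2, the nearest protein-coding gene of the table, 4965 bases away and without overlap, with mitoxantrone and 79.1% ± 2.33 with DMSO (SD, n = 3 each). With all libraries the group ranges overlapped for both shares, and the intervals cover counting error only.

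DMSO replicate 2 was not low throughout. It held the lowest DMSO value of HOXA-AS3, HOXA13 and HOXA2, but the highest of HOXA5, HOXA9 and HOXA-AS2. Among the 512 lower genes of the table it was the lowest DMSO library for 164 (32%), against 210 for DMSO replicate 1 and 138 for DMSO replicate 3.

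**Figure D3:**
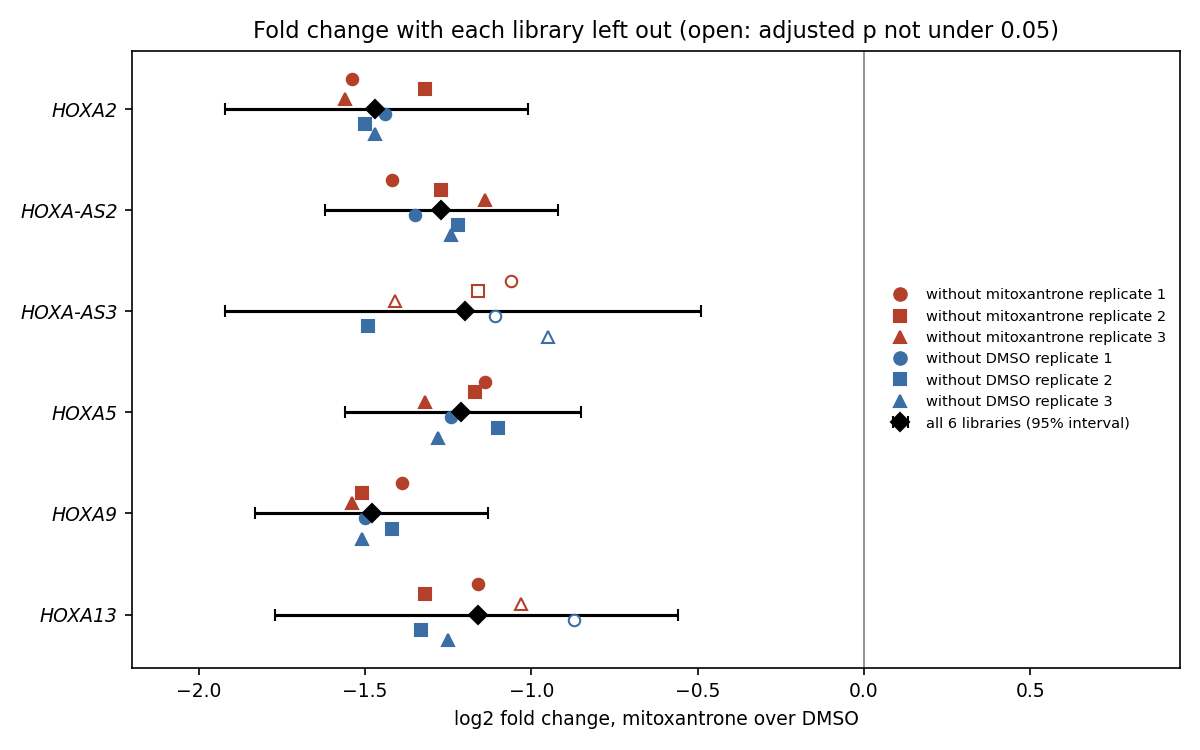
Log2 fold changes of the 6 HOXA transcripts, mitoxantrone over DMSO, from all 6 libraries (black diamonds, bars are 95% intervals) and with each library left out (red, a mitoxantrone library; blue, a DMSO library). Filled symbols have an adjusted p under 0.05 and open ones do not; open symbols occur for HOXA-AS3 and HOXA13 only, and every value lies below 0, from -1.56 to -0.87.

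Outside the HOXA cluster, HOXD13 was the 1 gene of the other HOX clusters in the table, of 42 genes and antisense transcripts in that list. HOXD13, the paralogue of HOXA13 and a limb gene, had 54.3, 37.5 and 44.0 normalised reads with mitoxantrone, against 131, 147 and 124 with DMSO. It fell 2.97-fold (log2 fold change -1.57, standard error 0.20, adjusted p = 4.7e-05, edgeR). Of 18 transcripts in the HOXA list, the 6 members were in the table. The table held 51 genes of chromosome 7, of which 23 were lower, and 0 genes besides the members within 1000000 bases of them.

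Of 26 CDX and retinoid genes 4 were in the table and all 4 fell, where 35.3% of the table's genes were called lower. As the table holds only genes selected as changed, these falls do not stand for the whole list. STRA6, a receptor for retinol uptake, fell 3.51-fold, and ALDH1A2, which makes retinoic acid, fell 2.34-fold. CYP26A1, which breaks retinoic acid down, was at 10.2, 2.08 and 12.9 normalised reads with mitoxantrone and at 30.9, 26.8 and 23.1 with DMSO, 3.21-fold lower. RARRES1, a gene induced by retinoids, fell 8.33-fold. The adjusted p-values of these 4 genes ran from 2.8e-07 for RARRES1 to 0.029 for CYP26A1 (edgeR). The call for CYP26A1 ended without DMSO replicates 1 or 3 or mitoxantrone replicate 2, and that for ALDH1A2 without DMSO replicates 1 or 3 or mitoxantrone replicates 2 or 3 (adjusted p from 0.054 to 0.16, edgeR). The CDX genes were not analysed here.

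Of 33 Polycomb genes 3 were in the table and all 3 fell, where 35.3% of the table's genes were called lower. The table holds only genes selected as changed, and the other Polycomb genes were not analysed here. EZH2, the histone methyltransferase of Polycomb repressive complex 2, averaged 447 ± 14.3 normalised reads with mitoxantrone and 955 ± 51.0 with DMSO (SD, n = 3 each), 2.14-fold lower. PHF19, an accessory subunit of that complex, fell 2.78-fold, and CBX2, a chromodomain subunit of Polycomb repressive complex 1, fell 2.57-fold. Of 23 trithorax and MLL genes PSIP1, which tethers MLL to chromatin, was in the table and fell 2.17-fold. The adjusted p-values of these 4 genes ran from 9.8e-07 for PHF19 to 2.5e-05 for PSIP1 (edgeR).

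Of 102 other homeobox genes 8 were in the table, of which 7 passed as lower and 0 as higher. Of these 7, ZFHX4 and SIX2, named after their values were seen, lost the call when single libraries were left out. For ZFHX4 these were DMSO replicates 1 or 3 and mitoxantrone replicates 1 or 3 (adjusted p = 0.18, 0.10, 0.076 and 0.056, edgeR), and for SIX2 DMSO replicate 3 and mitoxantrone replicate 2 (0.083 and 0.11). The 3 largest falls were those of ALX1, a gene of craniofacial development, at 5.86-fold, EN2, a midbrain and cerebellum gene, at 3.24-fold, and POU3F2, a neural transcription factor gene, at 2.84-fold. EN2 had 39.6, 40.6 and 42.9 normalised reads with mitoxantrone, against 142, 119.5 and 138 with DMSO. ALX1 averaged 3.23 ± 1.02 normalised reads with mitoxantrone and 19.5 ± 2.65 with DMSO (SD, n = 3 each). ZFHX2, the remaining one, which was singled out after its values were seen, averaged 85.5 ± 25.3 normalised reads with mitoxantrone and 37.5 ± 20.7 with DMSO (SD, n = 3 each), and the groups overlapped. Its log2 fold change was 1.17, which did not pass (adjusted p = 0.056, edgeR, and 4.6e-04 to 1 over the alternatives). Across the CDX and retinoid, Polycomb, trithorax, other HOX and other homeobox lists, the table therefore held 17 genes. Of these, 16 passed as lower and 0 as higher, where 35.3% of the table's genes were called lower and 56.7% higher. The authors had selected the table on the same contrast, and the lists were chosen with earlier results of these data known. These counts therefore describe the listed genes and are no independent evidence of their direction.

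**Figure D4:**
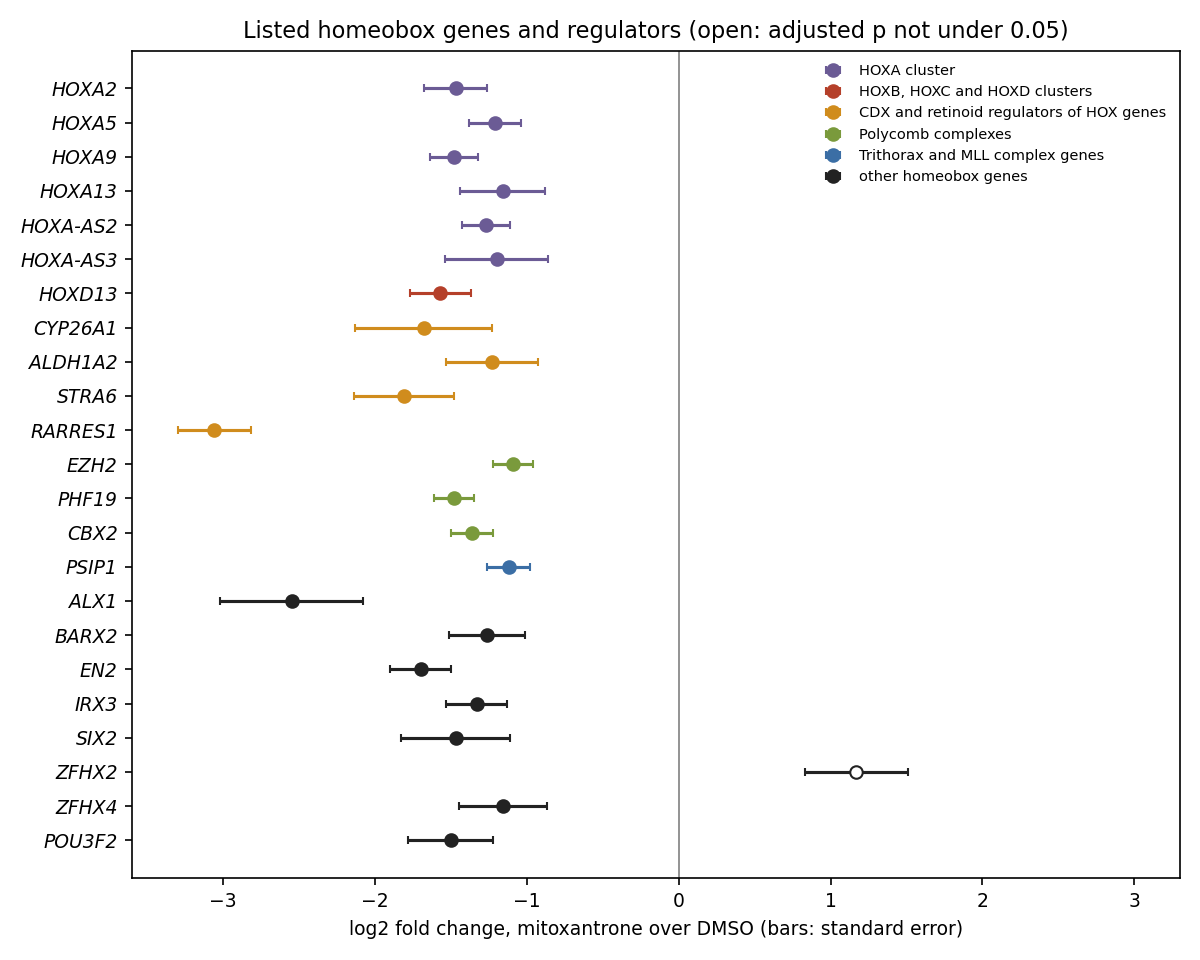
Log2 fold changes, mitoxantrone over DMSO, of the HOXA members and of the genes of the table in 5 related lists, coloured by list, with standard errors as bars. Filled circles have an adjusted p under 0.05, and ZFHX2 (open circle, 1.17) is the single gene above 0.

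The 5 genes most like HOXA-AS2, the member with the most reads, were TNFAIP8L1 (Pearson r = 0.996), the mitotic cyclin gene CCNB2 (0.994), IGFBP3, which binds insulin-like growth factors (0.991), the kinase gene PIM3 (0.991) and the MAP kinase phosphatase gene DUSP9 (0.989). Likeness was the correlation of log2(normalised reads + 1) over the 6 libraries, which share their treatment groups and depths, among genes of the table with a mean of at least 64.2. All 5 were lower with mitoxantrone, with log2 fold changes from -2.21 for DUSP9 to -1.06 for TNFAIP8L1. Genes picked for their likeness to a transcript that fell were bound to be lower, so this direction is no finding of its own.

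Markers of the cell type and of other cell types were read in the same libraries. Of 16 lung epithelial markers the keratin genes KRT8 and KRT18 and the transcription factor gene FOXA2 were in the table, and all 3 rose with mitoxantrone, where 56.7% of the table's genes were called higher. FOXA2 had 3.39 to 13.5 normalised reads with mitoxantrone and 0 to 2.06 with DMSO, and its call ended in 8 of 14 alternatives. Among these were leaving out DMSO replicates 1 or 3 or mitoxantrone replicates 2 or 3 (adjusted p = 0.12, 0.13, 0.15 and 0.10, edgeR). Size factors computed over the listed genes also ended the calls of the 3 genes, apart from KRT8 with TMM factors: the log2 fold changes were then 0.51 (KRT18), 0.80 (KRT8) and 2.59 (FOXA2) with TMM and 0.20, 0.49 and 2.31 with DESeq2 factors. Their summed level was 122477 to 152992 normalised reads with mitoxantrone and 46889 to 63697 with DMSO. Nearly all of this sum came from KRT8 and KRT18, whose spans overlap on opposite strands in the deposited table. Of 10 fibroblast markers COL1A1 was in the table, at 119.9 to 159 normalised reads with mitoxantrone and 293 to 392 with DMSO. Of 6 endothelial markers CDH5 was in the table (188 to 229.7 with mitoxantrone and 386 to 517 with DMSO), and of 9 leukocyte markers CD14 (23.6 to 27.1 with mitoxantrone and 43.0 to 70.3 with DMSO). COL1A1, CDH5 and CD14 fell between 2.13-fold and 2.46-fold (adjusted p = 3.8e-05, 1.1e-04 and 0.011, edgeR), where 35.3% of the table's genes were called lower. The table holds only genes selected as changed, and the other markers were not analysed here. The call of CD14 ended without DMSO replicate 3 (adjusted p = 0.083) and without mitoxantrone replicate 3 (0.062, edgeR). The part of these changes in the falls of the HOXA transcripts was not tested.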

How the data were processed

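RNA of NCI-H292 cells was sequenced as paired reads, per the labels' protocols, which name a poly(A) kit or an rRNA removal kit. Per the submitters' processing notes, the tools included HISAT2 2.0.1, cutadapt 1.9.1, DESeq2, HTSeq 0.6.1 and Cufflinks 2.2.1, with no role given; the genome build is not given in the sources used here. Per the file headers, the authors' deposited table holds a raw read count and an FPKM value per gene and library. It also holds the authors' mean normalised count (a signal value), log2 fold change with standard error, Wald score, p-value and adjusted p-value; the authors' Wald score was not used.

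Size factors were solved from the deposited counts and mean normalised counts (largest relative error 5.0e-10). Library totals solved from the FPKM values were 14762522 to 15663306 reads with mitoxantrone and 15789486 to 17817817 with DMSO, and the number of tests, 18310 (18301 to 18318), from the authors' adjusted p-values set against their raw ones. All 1305 genes were fitted by quasi-likelihood in edgeR 4.0.16 under R 4.3.3, with DESeq2 1.42.0 and limma 3.58.1 as alternatives, for treatment alone, without a filter, at an adjusted p of 0.05. Ranks were taken among listed genes only, which enlarges adjusted p-values, and dispersions estimated from selected genes tend to be too low. The script was tested on simulated data in which most genes were unchanged. The listed genes were all selected as changed, so that test checks the code and not the calls made here. A standard error is the size of the log2 fold change over the square root of F. Shares have exact binomial intervals (scipy 1.17.1).

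The members, gene lists, tests and alternatives were chosen with earlier results of these data known. The rule named the 6 members and 23 other genes: genes of the fixed lists (for lists with over 6 genes in the table the 3 largest rises and falls), genes within 1000000 bases, and the 5 genes most like the most abundant member. Alternatives were other size factors, the DESeq2 Wald test, limma on log2(FPKM + 1) and log2(FPKM + 0.1), a minimum mean of 10 normalised reads, adjustment for the listed genes alone, each library left out and a replicate block; library totals as size factors were added after seeing the data. One further gene list is not reported here.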

Additional observations from a re-analysis of the deposited data

How the results depend on the processing

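The falls of HOXA2, HOXA5, HOXA9 and HOXA-AS2 passed an adjusted p of 0.05 in all 15 alternatives, those of HOXA13 in 11 and HOXA-AS3 in 7, and no member changed direction. With limma on log2(FPKM + 1), whose pseudocount shrinks low genes by construction, HOXA-AS3 had -0.35 and HOXA13 -0.45; on log2(FPKM + 0.1) they had -0.95 and -1.02. With a minimum mean of 10 normalised reads HOXA-AS3 had -1.20 and an adjusted p of 0.067 (edgeR; the cause was not tested). Leaving out 1 library gave -1.49 to -0.95 for HOXA-AS3 and -1.33 to -0.87 for HOXA13. Between 4 and 6 members were called in every alternative. Size factors over the listed genes, which treat a selected set as mostly unchanged, moved the median of all log2 fold changes by -0.69 with TMM and by -0.99 with DESeq2 factors, and gave 366 or 219 higher genes in place of 740, against 512 lower in place of 461 (41.7% and 30.0% higher in place of 61.6%). They enlarged the falls of the members, to between -2.47 and -1.85. The replicate block left 6 members called, with -1.15 for HOXA-AS3, and 463 genes lower. The deviations of same-numbered libraries from their group means had correlations of -0.23, -0.15 and 0.03. These gave no sign that the numbers pair the libraries, but with 3 libraries per group they cannot exclude it. Between differently numbered DMSO and mitoxantrone libraries the correlations ran from -0.20 to 0.31, and a pairing other than by number was not tested. HOXA13 and HOXA-AS3 rested on 17 to 34 reads in each mitoxantrone library, which limits their precision.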
